A study of Mus musculus with 4 samples.

Results

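The genes described here are 6 neuropeptide precursor genes, Sst, Npy, Cartpt, Pnoc, Adcyap1 and Cck, taken as a named list and measured as rows of the 4 deposited count matrices. They are 6 of the 32286 features in those matrices. Each library holds single cells from mouse cerebella of stage E15.5 that were sorted for tdTomato, a red fluorescent protein switched on by Cre. The control genotype was Ptf1aCre/+; R26LSL-tdT/+ (2 libraries). The En1/2 CKO genotype, a conditional knockout, was Ptf1aCre/+; En1lox/lox, En2lox/lox; R26LSL-tdT/+ (2 libraries). Both genotypes therefore carry the Cre allele and the reporter, and the knockout adds homozygous lox alleles of En1 and En2, homeobox genes of the midbrain and cerebellum. Cre was driven by Ptf1a, a transcription factor of the GABAergic progenitors, so the lox alleles could be cut in cells with a Ptf1a history. Animals were pooled before dissociation, so each library is a pool and the spread between libraries is a spread between pools.

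Neuropeptides are made as longer precursors that prohormone convertases cut inside dense core vesicles, from which the peptides are released to act on G protein coupled receptors. Sst encodes the precursor of somatostatin, an inhibitory peptide, and Pnoc that of nociceptin, the ligand of the receptor Oprl1. Cartpt encodes the CART peptides, Adcyap1 encodes PACAP, Cck encodes cholecystokinin, and Npy encodes neuropeptide Y. In the cerebellum the Ptf1a lineage gives rise to Purkinje cells, which are born first, and to the GABAergic interneurons, which keep being born for longer.

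The 4 libraries kept 9487 and 1171 control cells and 4893 and 7300 knockout cells, with median counts of 1186, 2427, 2173 and 1110 UMIs (unique molecular identifiers) per kept cell. Control replicate 2 stood apart: 25.5% of its barcodes passed the filters, against 63.9% to 94.6% elsewhere, and it held 27 Purkinje-like and 101 interneuron-like cells. Any 2 libraries shared at most 32 cell barcodes. En1 was at 243 and 38.5 CPM (the gene's UMIs per 1000000 UMIs of the same sum) in the control Purkinje-like cells and at 249 and 242 CPM in the knockout ones, and En2 was at 119 and 77.0 against 78.9 and 45.7 CPM. Which exons of En1 and En2 are removed is not given in the sources used here, so 3' counts do not check the deletion. Clusters were named from marker lists, with the suffix "-like", and the 6 genes were kept out of the genes used for clustering. The Purkinje-like class (clusters 9 and 13) held 1814 cells and the GABAergic interneuron-like class (clusters 0 and 1) held 5721. Levels of a class are computed from its summed UMIs in each library.

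In the 22851 kept cells Pnoc was the most counted of the 6 genes, with 6056 UMIs in 2892 cells. Sst had 2397 UMIs in 1327 cells and Cartpt 2377 UMIs in 1325 cells. Adcyap1 (354 UMIs), Cck (107 UMIs) and Npy (93 UMIs) were rare. These totals put the genes in order of counted molecules. How fully the transcripts of each gene were captured was not measured, so the totals do not rank the genes by level. The genes fell into 3 patterns. Pnoc, Cartpt and Sst were concentrated in the interneuron-like class and in cluster 11, Adcyap1 and Cck in the Purkinje-like class, and Npy in no class.

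**Figure D1:**
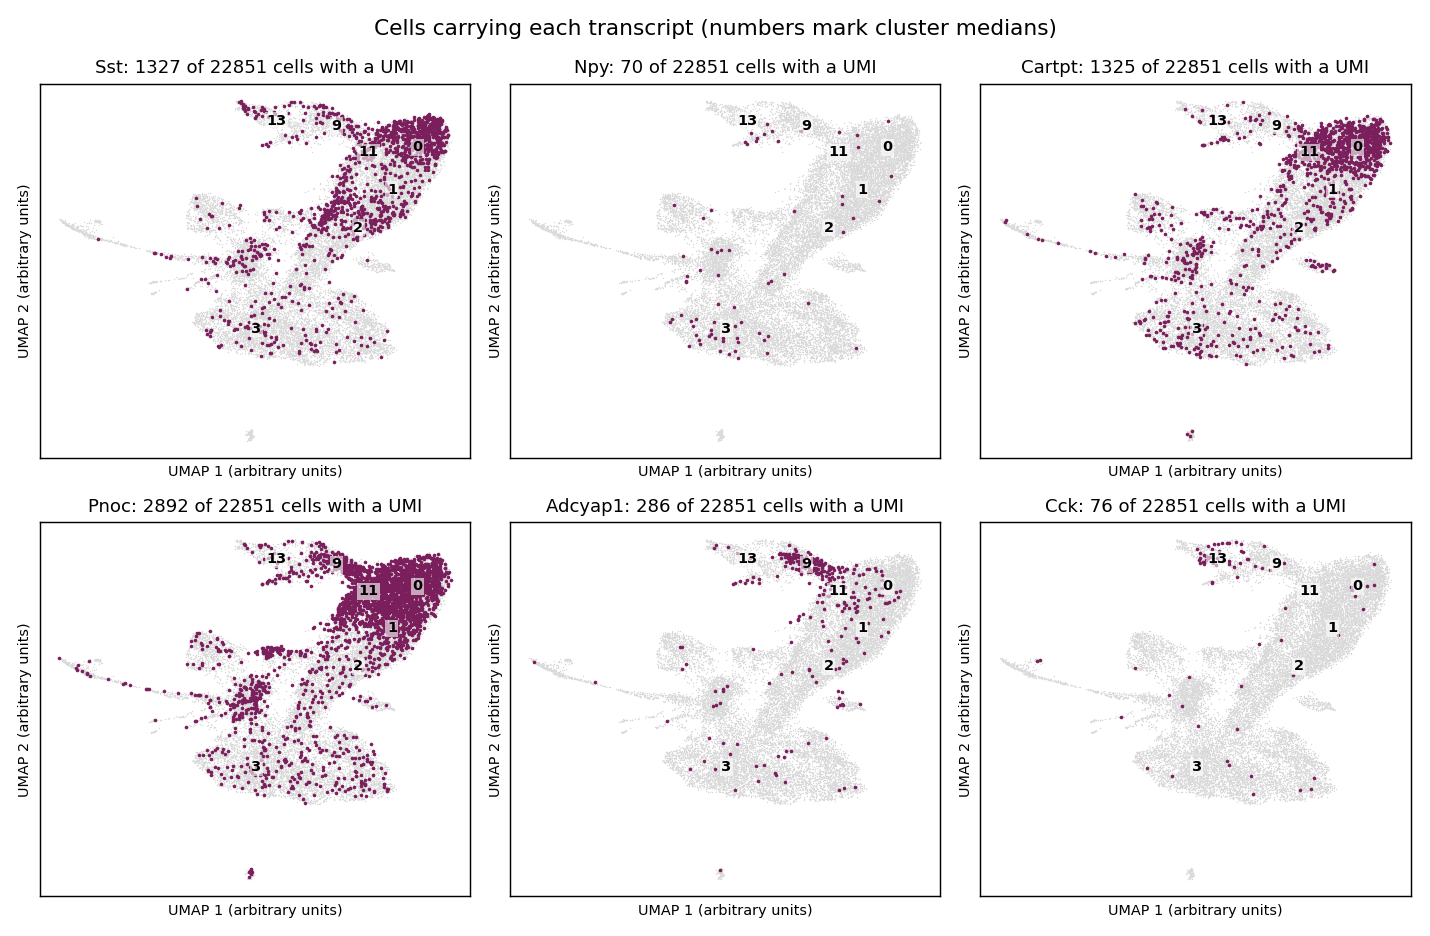
Each panel places the 22851 kept cells on 2 UMAP axes (arbitrary units), in grey, and marks in purple the cells with at least 1 UMI of the gene; bold numbers mark cluster medians. Pnoc, Sst and Cartpt cells crowd around clusters 0 and 11, Adcyap1 cells around cluster 9 and Cck cells around cluster 13.

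Sst (chr16:23889573-23890958, minus strand, GENCODE vM21 on GRCm38) and Cartpt (chr13:99898489-99901091, minus strand) shared their leading clusters. Both genes also carry the same 8-base motif in the 250 bases upstream of the RefSeq start, the cAMP response element TGACGTCA, a palindrome that is bound by CREB family factors. Its search ran on both strands. The sequences below, from the RefSeq promoter table on GRCm38.p6, show that motif or its shorter core TGACG in capitals (on the other strand in Cck), read 5′ to 3′ on the gene's strand.
Sst, chr16:23890874-23890903, minus strand: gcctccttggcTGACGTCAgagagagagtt
Cartpt, chr13:99900777-99900806, minus strand: ccggcgggcatTGACGTCAaacggcagcgg
Adcyap1, chr17:93198915-93198941, plus strand: gactaggatgcTGACGtcttttactga
Cck, chr9:121495726-121495752, minus strand: ctgctggactgCGTCAgcactgggtaa
The motif began 48 bases upstream of the RefSeq start in Sst and 112 bases upstream in Cartpt. GENCODE places longer first exons there, so both motifs also lie within its annotated untranslated exon. TGACGTCA was found in 1.55% of the 32851 upstream windows of the table and the core TGACG, which TGACGTCA contains, in 17.8%. Adcyap1 held the core alone 91 bases upstream and Cck 47 bases upstream. Neither form was found in the Npy window, and Pnoc (chr14:65400673-65425472, minus strand) is not shown. A match describes the letters only.

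Sst was highest in cluster 0, the part of the interneuron-like class led by Sez6 and Igfbp5. There it was at 194 and 178 CPM in the control libraries and at 185 and 376 CPM in the knockout libraries (mean 233 ± 95.5, SD, n = 4 libraries). Cluster 11 followed with 123, 105, 142 and 147 CPM in the same order (129 ± 19.1), and no library of cluster 11 reached the lowest of cluster 0. Cluster 11 was led by Neurod1 and Bhlhe22 and was given no name, although 9 of the 10 interneuron markers were raised in it. Among the 15 clusters that held 20 or more cells per library, which leaves out cluster 9 (mean 77.6 CPM), cluster 13 (74.3 ± 49.7 CPM), cluster 2 (57.2 ± 31.3) and cluster 8 (54.3 ± 14.5) came next, with ranges that overlapped each other and, for cluster 13, that of cluster 11. The second interneuron-like cluster, cluster 1 (led by Robo3 and Crtac1), held 28.1, 21.5, 59.4 and 44.2 CPM. Sst thus divided the interneuron-like class: in each library cluster 0 was above cluster 1. Erythroid-like cells, which should lack neuropeptides, held 19.2, 123, 0 and 45.8 CPM on 7, 9, 0 and 53 UMIs, a range that takes in every cluster 1 value.

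Shares of cells with an Sst UMI were also compared with those of cells that should lack it. In the interneuron-like class the share was 8.77% and 14.9% in controls and 10.6% and 11.2% in knockouts. After each cell was thinned to 1000 UMIs, which leaves shallower cells out, the shares were 7.65%, 12.9%, 10.2% and 10.6%. Microglia-like cells gave thinned shares of 0%, 0%, 0% and 2.15%, at median depths of 1531 to 4396 UMIs against 955 to 1974 UMIs in the interneuron-like class. Erythroid-like cells, at median depths of 844 to 1128 UMIs, gave 1.24%, 3.12%, 0% and 2.98%. The interneuron-like share was above both in each library.

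Cartpt was highest in cluster 11 and cluster 0. Cluster 11 held 257 and 134 CPM in the control libraries, and 217 and 168 CPM in knockouts (194 ± 53.8). Cluster 0 held 259, 7.10, 224 and 247 CPM (184 ± 119), so the ranges overlapped and the order of these clusters is not resolved. The low value belongs to control replicate 2, whose 74 cluster 0 cells carried 1 Cartpt UMI. That library was not low in cluster 11, where 14 of 108 cells had a Cartpt UMI. Cluster 1 held 36.3, 21.5, 32.4 and 36.8 CPM, and erythroid-like cells 35.6, 13.7, 66.0 and 71.8 CPM, a range that takes in every cluster 1 value. As with Sst, most Cartpt of the interneuron-like class sat in cluster 0, except in control replicate 2, where the class had 2 UMIs.

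Pnoc was broader. It reached 484 and 270 CPM in control and 625 and 747 CPM in knockout cluster 0 (531 ± 205), 358, 251, 358 and 291 CPM in cluster 11 (314 ± 53.2), and 300.3, 172, 308 and 392 CPM in cluster 1 (293 ± 90.8). The 3 ranges overlapped. Pnoc was also present in cluster 9, one of the Purkinje-like clusters, with 326 CPM in control replicate 1 and 426 and 584 CPM in the knockouts. In control replicate 2 cluster 9 had only 7 cells and 2 Pnoc UMIs. In the other Purkinje-like cluster, cluster 13, Pnoc was at 67.5, 0, 82.9 and 66.8 CPM. Pnoc was thus counted in both interneuron-like clusters and in both Purkinje-like ones, with a lower level in cluster 13 than in cluster 9. Purkinje-like cells with a Pnoc UMI carried more interneuron markers than those without, with marker sums of 2386, 5669 (2 cells), 2245 and 2384 against 1526, 444, 1268 and 1035 CPM, and their Purkinje marker sum was lower, at 4757, 5669, 3445 and 3131 against 5140, 8403, 4186 and 4432 CPM. The part of this in the Purkinje-like Pnoc level was not tested. In erythroid-like cells it was at 41.1, 82.0, 49.5 and 119 CPM, so its level in cluster 13 was not above theirs in every library. In microglia-like cells the thinned share with a Pnoc UMI was 0% to 3.66%, against 20.8% to 29.7% in the interneuron-like class.

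Adcyap1 was mostly a gene of cluster 9. It stood there at 89.3 CPM in control replicate 1, at 129 and 101 CPM in the knockouts and, on 3 UMIs from 1 cell, at 144 CPM in control replicate 2. Cluster 13 held 8.65, 0, 47.4 and 10.8 CPM, and the interneuron-like class 9.83, 5.34, 10.9 and 5.03 CPM. The Purkinje-like class carried 203 of the 354 Adcyap1 UMIs (57.3%). The share of Purkinje-like cells with an Adcyap1 UMI, after thinning, was 5.46% and 4.35% in controls and 8.53% and 3.07% in knockouts, against 0% to 1.49% in microglia-like cells.

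Cck was counted mostly in the other Purkinje-like cluster. In cluster 13, led by Snhg11 and Fgf3, it stood at 62.3 and 17.5 CPM in the control libraries, and at 11.8 and 49.5 CPM in knockouts, on 36, 1, 3 and 23 UMIs. In cluster 9 it was at 4.06, 96.2, 3.36 and 11.6 CPM, on 3, 2, 2 and 4 UMIs. The value of 96.2 CPM is that of control replicate 2, with 2 UMIs in 1 of 7 cells. Cluster 13 was thus above cluster 9 in each library except control replicate 2. Cluster 13 (35.3 ± 24.5 CPM) lay above the ranges of all other clusters that held 20 or more cells per library. The Purkinje-like class held 74 of the 107 Cck UMIs (69.2%). In the interneuron-like class 8 of 3842 cells of control replicate 1 had a Cck UMI, and in the other 3 libraries none did: 0 of 101, 0 of 652 and 0 of 1126 cells, which allows shares of up to 2.97%, 0.460% and 0.266% (3 counts over the cells). These limit the cells with a UMI at this depth, not the cells that express Cck.

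Npy was rare, and its counts gathered in cluster 13 of 1 library and in cluster 3. The Purkinje-like class had 23 Npy UMIs in control replicate 1, all in 6 cells of cluster 13, and 0, 1 and 4 in the other libraries. One of these cells held 8 of the 23. In cluster 3, a radial progenitor-like cluster led by Gdf10 and Sfrp2, Npy was at 9.60 and 25.7 CPM in the control libraries, and at 3.82 and 3.15 CPM in knockouts, on 11, 5, 5 and 3 UMIs. Among the 15 clusters holding 20 or more cells per library, these alone had a mean above 3 CPM.

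**Figure D2:**
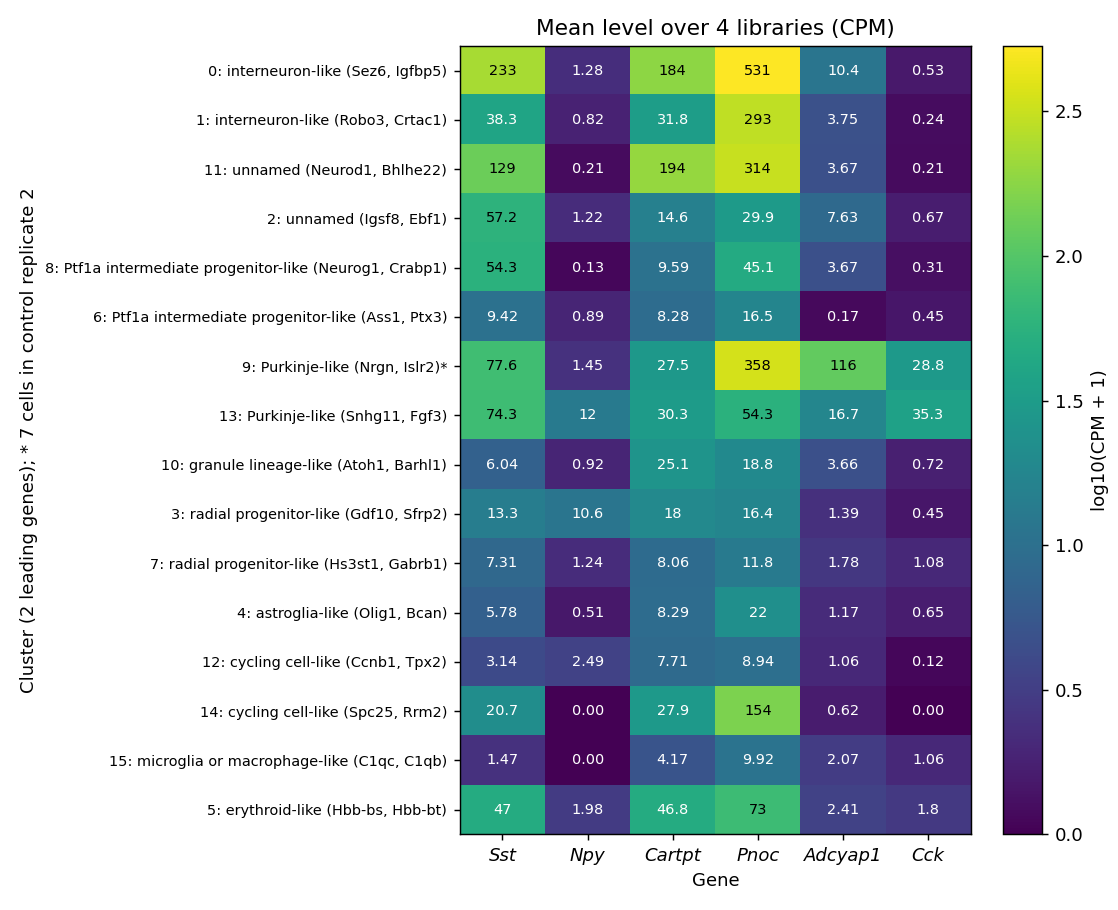
Each cell gives the mean level over the 4 libraries in CPM, for 16 clusters (rows, with 2 leading genes) and the 6 genes (columns), and colour shows log10(CPM + 1). Pnoc, Cartpt and Sst peak in clusters 0 and 11, Adcyap1 in cluster 9, and Cck in clusters 9 and 13; cluster 9 had 7 cells in control replicate 2, so its means rest on few UMIs there.

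Purkinje-like and interneuron-like cells of the same libraries were then compared, with the library as a block (edgeR quasi-likelihood test on summed counts). Across 9640 genes 22.1% passed an adjusted p of 0.05, with 11.5% higher and 10.7% lower in Purkinje-like cells. Cartpt, Pnoc and Sst had enough counts in both classes and each was lower in Purkinje-like cells. Adcyap1 and Cck entered the test through their Purkinje-like counts alone, so no count of called genes is read from them, and Npy was not tested. The classes were drawn without the peptide genes, but with genes that vary along with them.

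Adcyap1 was higher in Purkinje-like than in interneuron-like sums in each of the 4 libraries, at 53.9, 38.5, 105 and 49.4 CPM against 9.83, 5.34, 10.9 and 5.03 CPM. With no filter on low counts, so that it was not chosen by its higher class, its log2 fold change was 2.73 ± 0.24 (± SE; adjusted p = 1.04e-28, edgeR). Cck is given as levels only, since 3 of its interneuron-like sums held no UMI: 29.6, 38.5, 5.89 and 33.3 CPM in Purkinje-like sums against 1.64, 0, 0 and 0 CPM, with no overlap. Cartpt was lower in Purkinje-like cells, with a log2 fold change of -2.07 ± 0.18 (adjusted p = 2.26e-19, edgeR). It stood at 46.3, 0, 37.7 and 23.5 CPM in Purkinje-like sums against 165, 10.7, 138 and 151 CPM in interneuron-like sums, and the Purkinje-like values did not exceed the highest erythroid-like one, 71.8 CPM.

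Pnoc was lower as well, by a smaller amount (log2 fold change -0.94 ± 0.14, adjusted p = 2.38e-08, edgeR), with 213, 25.7, 324 and 288 CPM against 406, 246, 482 and 585 CPM. When the peptide genes were allowed into the clustering the Pnoc difference shrank to -0.32 (adjusted p = 0.104, edgeR). Sst had a log2 fold change of -0.97 ± 0.17 (adjusted p = 1.82e-06, edgeR). In the control libraries its Purkinje-like levels of 122 and 116 CPM lay beside interneuron-like levels of 124 and 139 CPM. In the knockout libraries 37.7 and 62.9 CPM stood against 128 and 225 CPM. The Sst difference between the classes was therefore seen mainly in the knockout libraries.

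**Figure D3:**
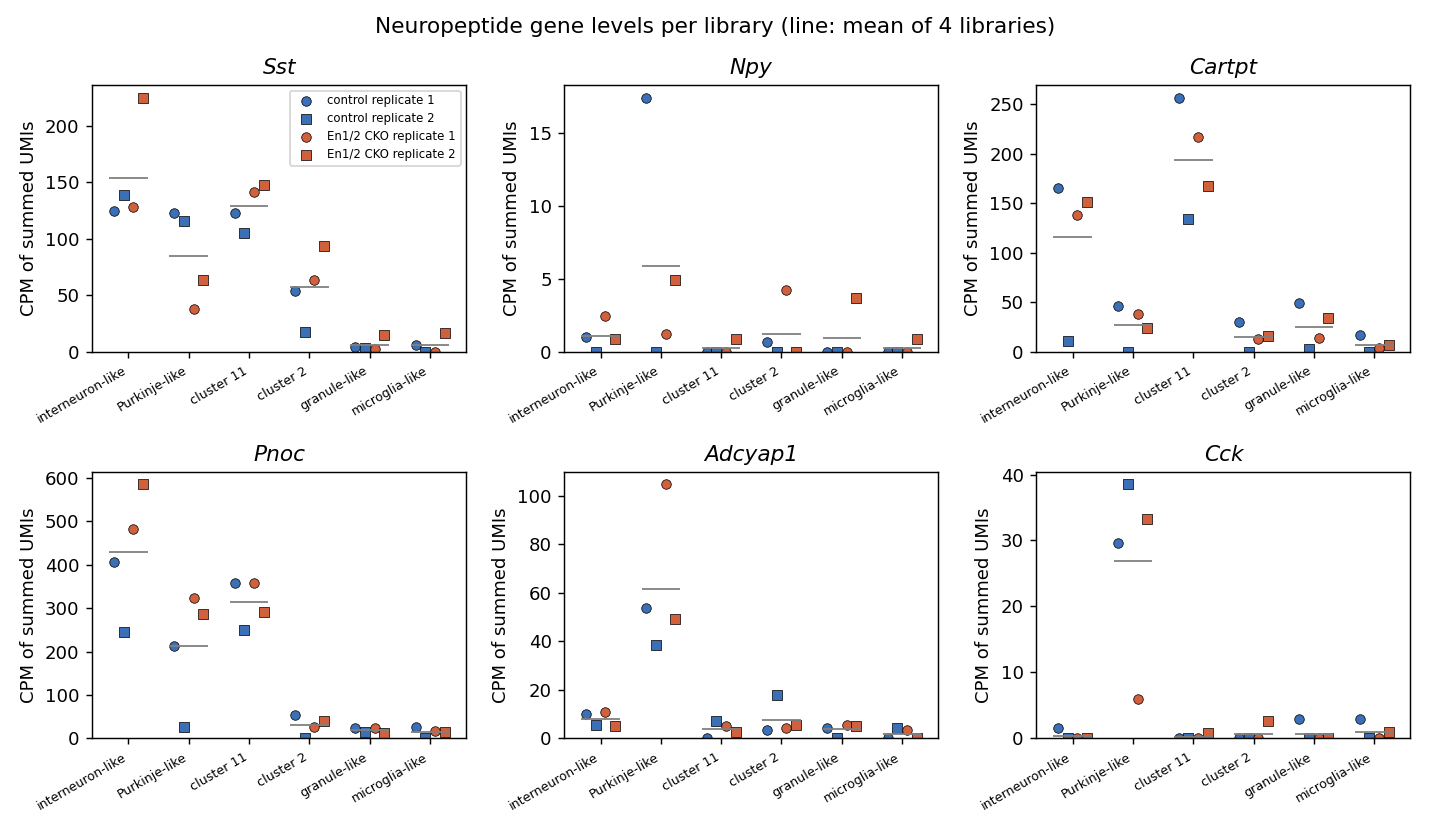
Each panel gives the CPM of 1 gene in 6 classes or clusters, with 1 point per library (blue control, orange En1/2 CKO; circle replicate 1, square replicate 2) and a grey line at the mean of 4. Adcyap1 and Cck points rise in Purkinje-like cells only, Cartpt of control replicate 2 is low in interneuron-like cells, and the knockout Sst points lie below the control ones in Purkinje-like cells.

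The genotype comparison asks whether the levels of these genes within a cell class change when En1 and En2 are deleted in the Ptf1a lineage. None of the 6 genes passed in any class or cluster where it had enough counts to be tested. In all, 65 tests over 25 classes, clusters and the sum of all kept cells gave no adjusted p below 0.05, with a lowest value of 0.465 (edgeR), and 9 had an unadjusted p below 0.05. Pnoc had 23 of these tests, Cartpt 18 and Sst 16, against 3 each for Cck and Npy and 2 for Adcyap1. The astroglia-like, erythroid-like and granule lineage-like classes are 1 cluster each and are counted under both names. The background was as low: edgeR called 2 of 9025 genes in Purkinje-like cells (0.0222%), 0 of 9085 in interneuron-like cells (0%) and 0 of 14628 in all kept cells (0%). Elsewhere it called 2 of 5689 in cluster 2 (0.0352%), 3 of 6408 in cluster 13 (0.0468%) and 0% in the others. At an unadjusted p below 0.05 edgeR had 286, 301 and 693 genes in Purkinje-like, interneuron-like and all kept cells, and DESeq2 called 2, 0 and 52. Some of the 9 tests lay in classes with more such genes. These were 899 of 10118 in Ptf1a intermediate progenitor-like and 808 of 10146 in cycling cell-like cells. The 9 also share UMIs: the 3 of Npy are in all kept cells, the radial progenitor-like class and its cluster 3. Counts were also simulated with the spread that the trend over all genes gives, and the changed genes were picked at random. There the edgeR test found 79% of genes changed 4-fold and 18% of those changed 2-fold in Purkinje-like sums. In interneuron-like sums it found 87% and 24%. A 2-fold change would thus most often be missed. Recovery of the 6 genes themselves, at their own counts and spread, was not simulated.

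Sst had the smallest unadjusted p of the 5 genes tested in Purkinje-like cells. Its levels were 122 and 116 CPM in the control libraries, and 37.7 and 62.9 CPM in knockouts, and the groups did not overlap. Erythroid-like cells held up to 123 CPM, in control replicate 2, so the Purkinje-like level of that library was not above theirs. The Purkinje-like log2 fold change of Sst was -1.26 ± 0.35 (adjusted p = 0.896, edgeR). Without control replicate 2 it was -1.29 and passed (adjusted p = 2.80e-04, edgeR), with a lone control assumed to vary like the knockouts. The other 12 alternatives stayed negative, from -1.63 to -0.90, and did not pass. The UMIs behind these levels numbered 161, 9, 32 and 51. They came from 79 of 906, 5 of 27, 20 of 437 and 23 of 444 cells, which are shares of 8.72% (exact Clopper-Pearson 95% interval 6.96% to 10.8%), 18.5% (6.30% to 38.1%), 4.58% (2.82% to 6.98%) and 5.18% (3.31% to 7.67%). These intervals cover counting error only. The thinned shares were 7.67% and 17.4% in controls and 2.06% and 4.78% in knockouts; an exact permutation test of 2 against 2 gave p = 0.333 (2-sided), the smallest such a design allows.

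Few cells set the Sst level in this class. One cell held 25 of the 161 UMIs in control replicate 1 and another held 18 of the 51 in knockout replicate 2. The 2 clusters of the class differed too. In cluster 9 Sst was at 168 CPM in control replicate 1 and at 48.1 (1 UMI), 45.3 and 49.2 CPM elsewhere. In cluster 13 it was at 64.0, 140, 19.7 and 73.2 CPM, where the groups overlapped (log2 fold change -0.66 ± 0.54, adjusted p = 1.00, edgeR). Cluster 9 made up 56.6%, 25.9%, 66.6% and 52.0% of the Purkinje-like cells. The summed level of the 14 Purkinje markers moved the same way as Sst, with 5067 and 8279 CPM in the control libraries, and 3908 and 4108 CPM in knockouts, and 3 of the 14 were lower in both knockout libraries than in both controls while none was higher. The 10 interneuron markers summed to 1690, 680, 1635 and 1371 CPM, and 5 of 8 cycling cell markers were lower in both knockouts. The part of these in the Sst values was not tested.

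In the interneuron-like class Sst was at 124 and 139 CPM in the control libraries, and 128 and 225 CPM in knockouts, a log2 fold change of 0.42 ± 0.33 (adjusted p = 1.00, edgeR), and the groups overlapped. The difference between the 2 genotype effects was tested in 1 model over both classes. The Sst log2 fold change was lower in Purkinje-like than in interneuron-like cells, by -1.71 ± 0.28 (adjusted p = 1.66e-06, edgeR), with 28 of 9640 genes called in that test (0.290%; 0.156% higher and 0.135% lower). Sst was the only one of the 5 tested genes called. DESeq2 gave nearly the same size, -1.67, without a call (adjusted p = 1.00). The call was also lost without control replicate 1 (-1.31, adjusted p = 0.537, edgeR), without knockout replicate 1 (-1.72, adjusted p = 0.685, edgeR) and without knockout replicate 2 (-1.60, adjusted p = 1.00, edgeR). It stayed without control replicate 2 (-1.78, adjusted p = 3.89e-05, edgeR).

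**Figure D4:**
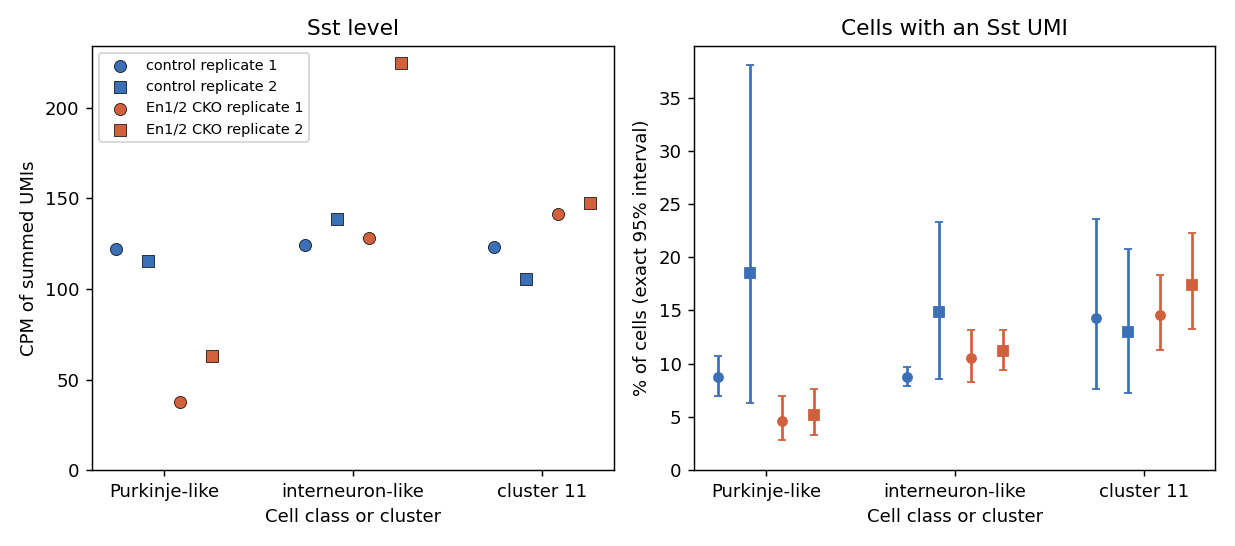
Sst is shown for 3 classes or clusters as CPM per library (left) and as the percent of cells with an Sst UMI with its exact 95% interval (right), in blue for control and orange for En1/2 CKO. In Purkinje-like cells both knockout libraries lie below both controls, while in interneuron-like cells and in cluster 11 they do not; the interval of control replicate 2 is wide because it has 27 Purkinje-like cells.

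Pnoc pointed upward in both classes without passing. In Purkinje-like cells its log2 fold change was 0.99 ± 0.48 (adjusted p = 1.00, edgeR), and control replicate 2 had 2 Pnoc UMIs there. Without control replicate 1, which leaves that library as the lone control, it was 3.63 (adjusted p = 1.28e-06, edgeR). In interneuron-like cells it was 0.63 ± 0.32 (adjusted p = 1.00, edgeR), with both knockouts, at 482 and 585 CPM, above both controls, at 406 and 246 CPM, and 1.06 without control replicate 1 (adjusted p = 0.00167, edgeR). The thinned share of interneuron-like cells with a Pnoc UMI was 20.8% and 21.4% in controls and 26.5% and 29.7% in knockouts (exact permutation p = 0.333, 2-sided, the smallest possible).

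Cartpt in interneuron-like cells turned on control replicate 2. Its log2 fold change was 0.29 ± 0.54 with all libraries (adjusted p = 1.00, edgeR), 3.68 without control replicate 1 (adjusted p = 6.45e-07, edgeR) and -0.23 without control replicate 2 (adjusted p = 0.629, edgeR). Adcyap1 and Cck could be tested in Purkinje-like cells, with log2 fold changes of 0.58 ± 0.41 and -0.65 ± 0.61 (adjusted p = 1.00 for each, edgeR). Without knockout replicate 1, whose Adcyap1 was highest and Cck lowest, these became -0.0056 and 0.091. Npy could be tested in radial progenitor-like cells, where its log2 fold change was -2.12 ± 0.59 (adjusted p = 0.897, edgeR).

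**Figure D5:**
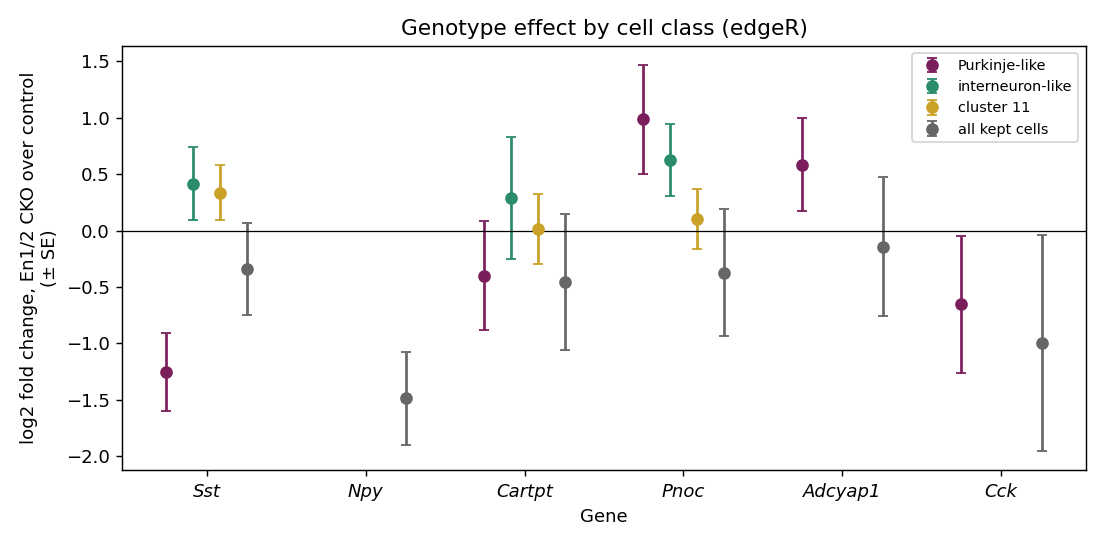
Points give the log2 fold change of En1/2 CKO over control from edgeR for each gene and up to 4 classes, with bars of 1 SE; a gene with too few counts in a class has no point. The 4 classes are Purkinje-like, interneuron-like, cluster 11 and all kept cells. Sst lies at -1.26 in Purkinje-like cells and above 0 in interneuron-like cells and cluster 11, and no point passed the adjusted threshold.

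The cells that carried the genes changed in number between libraries. Cluster 11 made up 0.885% and 9.22% of kept control cells and 8.42% and 4.01% of kept knockout cells. Interneuron-like cells made up 40.5% and 8.63% against 13.3% and 15.4%. These shares differed between replicates of a genotype too. Where the Sst counts lay also differed between libraries. Interneuron-like cells held 64.9% of the Sst UMIs of control replicate 1 and 18.6% of those of knockout replicate 1, where cluster 11 held 40.5%. That sets 1 control library beside 1 knockout library and is not read as a difference between genotypes. Within cluster 11 no difference between genotypes passed for Sst (log2 fold change 0.34 ± 0.24), Cartpt (0.01 ± 0.31) and Pnoc (0.10 ± 0.27), with adjusted p of 0.807, 0.996 and 0.959 (edgeR).

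Within the interneuron-like class the 3 abundant genes overlapped in part of the cells. After thinning, 29.4% of the cells with an Sst UMI in control replicate 1 also had a Pnoc UMI, against 20.1% of those without. In the knockouts the shares were 36.4% against 25.3% and 39.2% against 28.5%. Control replicate 2 had 9 cells with Sst and none of them had Pnoc. Cartpt was found in 14.9% of cells with Sst against 9.45% without in control replicate 1, and in 18.2% against 7.19% and 11.8% against 9.74% in the knockouts. Both genes peak in cluster 0, and within that cluster the Cartpt shares were 16.8% against 13.9%, 20.7% against 10.5% and 14.3% against 15.2% in the same 3 libraries. Cells with UMIs of at least 2 of the 6 genes made up 5.87%, 0%, 6.77% and 8.51% of thinned interneuron-like cells and 4.16%, 0%, 4.41% and 3.07% of Purkinje-like cells. Most cells of either class, 58.7% to 73.9%, had none at this depth.

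Cells with an Sst UMI within the interneuron-like class also differed in other genes. Slc32a1, the vesicular GABA transporter, was at 857, 595, 584 and 692 CPM in cells with Sst and at 648, 409, 499 and 586 CPM in those without. Other inhibitory genes did not follow it. Gad2 was lower in cells with Sst in each library, at 128, 42.5, 94.2 and 145 against 143, 122, 167 and 152 CPM. Slc6a5 was lower in each library too, at 39.1, 0, 66.0 and 106 against 58.8, 36.6, 70.9 and 116 CPM. Gad1 went in both directions, at 250, 255, 283 and 231 against 274, 207.5, 261 and 257.5 CPM. The Purkinje marker sum was lower in cells with Sst, at 1547, 1997, 2054 and 1279 against 2358, 2319, 2596 and 2207 CPM. Cells of cluster 0, where Sst was highest, had a low Purkinje marker sum as a whole, at 1343, 1328, 1302 and 1130 CPM, so the contrast is also one between clusters. Cartpt cells, in the 3 libraries with more than 2 of them, had Slc32a1 at 882, 640 and 716 against 639, 492 and 585 CPM. Their Gad2 was lower, at 119, 108 and 98.0 against 144, 164 and 158 CPM. Their Gad1 was higher, at 280, 285.5 and 286 against 270, 261 and 250 CPM. Slc6a5 was at 43.8, 88.6 and 151 against 58.7, 67.7 and 110 CPM, higher in the knockouts alone.

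Over the same 15 clusters, Cartpt and Pnoc had a Pearson r of 0.86, Sst and Cartpt 0.82 and Sst and Pnoc 0.82 (log2(CPM + 10), mean over libraries). Adcyap1 had 0.71 with Cck and 0.69 with Sst, and Cck had 0.69 with Npy. These describe clusters that share libraries and depth, and cluster 9, where Adcyap1 was highest, is not among them. Of the clusters compared, Adcyap1 had its highest mean in cluster 13, where its libraries ranged from 0 to 47.4 CPM. Of the 6654 other genes compared, those most like Sst were Arg2 (r = 0.95), Mmp24 (0.94), Nxph4 (0.94), Gm27032 (0.93) and Sh2d3c (0.93). Those most like Pnoc were Gad1 (0.96), a GABA synthesizing enzyme, Nptx1 (0.95), Slc6a5 (0.95), the glycine transporter of inhibitory terminals, Sez6 (0.95) and Grik3 (0.95). Cartpt was most like Glra2 (0.91), a glycine receptor subunit, Akap5 (0.91), Grik3 (0.90), Sez6 (0.89) and Grin2b (0.88). Among 6655 other genes, Adcyap1 was most like Dnm1 (0.92), Cntnap4 (0.90), Atp8a2 (0.90), Resp18 (0.90) and Caly (0.90). Cck was most like Kcnip1, Cdh9, Gm30382, Tmem132d and Prph (each 0.99). Npy was most like Trpm3 (0.96), Ntng1 (0.92), Cacna1e (0.89), Fgf15 (0.88) and Gm26793 (0.86). Few clusters set these values for Cck and Npy. Cck averaged 35.3 CPM in cluster 13 and at most 1.80 CPM in the others compared. Its r values therefore mostly describe genes that are high in cluster 13. Npy averaged above 3 CPM in clusters 13 and 3 alone, and its cluster 13 counts came mainly from control replicate 1.

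Many genes of precursor processing and dense core vesicles were detected in both classes, but not all. The convertase gene Pcsk1 averaged 2.07 CPM in Purkinje-like and 0.051 CPM in interneuron-like cells, and Cadps2 11.3 and 0.41 CPM. Their relatives were higher in both classes: in the same order, the convertase gene Pcsk2 averaged 54.2 and 44.3 CPM, and Cadps 226.7 and 265.3 CPM. Pcsk1n, an inhibitor of prohormone convertase 1, was at 1523 ± 678 CPM in Purkinje-like and 1547 ± 649 CPM in interneuron-like cells (SD, n = 4 libraries). Cpe, the carboxypeptidase that trims the cut peptides, was at 484 ± 95.9 and 485 ± 112 CPM. Scg5, a chaperone of prohormone convertase 2, was at 374 against 575 CPM, the granin Scg3 at 193 against 287 CPM and the granin Chgb at 279 against 194 CPM. Syt4, a vesicle synaptotagmin, averaged 81.8 CPM in Purkinje-like cells and the granin Scg2 43.6 CPM, and neither reached 20 CPM in interneuron-like cells. Qsox1 was at 25.8 against 116 CPM. Such genes could take part in drawing the clusters, so no test between the classes is given. For the genotype comparison 0 of the 15 tested in Purkinje-like and 0 of the 13 tested in interneuron-like cells passed (edgeR).

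Of the receptors for the 6 peptides, 15 genes, only Oprl1, the nociceptin receptor, averaged at least 20 CPM, with 72.9, 38.5, 40.0 and 46.9 CPM in Purkinje-like and 47.1, 5.34, 26.7 and 34.4 CPM in interneuron-like cells. Neither Oprl1 nor the other receptors with enough counts, 1 more in Purkinje-like and 2 more in interneuron-like cells, passed a genotype test (edgeR). Of 38 other peptide precursor genes, also kept out of the clustering, none averaged 20 CPM in either class. Nts, the neurotensin precursor, stood at 21.3, 12.8, 2.36 and 2.47 CPM in Purkinje-like against 0.205, 0, 0 and 0.839 CPM in interneuron-like sums, and entered the test through its Purkinje-like counts alone. Npff entered through its interneuron-like counts alone, and stood at 3.04, 12.8, 2.36 and 4.94 CPM in Purkinje-like against 10.4, 5.34, 19.4 and 15.9 CPM in interneuron-like sums, lower in 3 of 4 libraries. Both are given as levels, with no test between the classes. None of the 3 tested in Purkinje-like or the 2 tested in interneuron-like cells passed a genotype test (edgeR).

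Transmitter genes place the 2 classes beside their peptides. In interneuron-like cells the GABA transporter Slc32a1 stood at 552 CPM, Gad1 at 251, Gad2 at 140 and Slc6a5 at 68.5 CPM. In Purkinje-like cells they stood at 235, 85.6, 190 and 10.3 CPM. Slc32a1, Gad1, Gad2 and Slc6a5 were among the markers used to name the interneuron-like class. Their levels there are therefore not independent of its name. Slc17a6, the vesicular glutamate transporter of many excitatory neurons, was at 8.35, 0, 14.1 and 37.0 CPM in Purkinje-like sums. None of these genes passed a genotype test (edgeR); Slc32a1, Gad1, Gad2 and Slc6a5 were tested in both classes and Slc17a6 in Purkinje-like cells alone.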

How the data were processed

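The deposited matrices hold raw UMI counts per gene and cell, made by the authors with Cell Ranger 6.1.0 on mm10, per the file headers and the submitters' processing notes. A cell needed 500 or more detected genes and a mitochondrial share of 10% or less. Doublets were called with Scrublet (scanpy 1.11.5); where it marked under 0.5% of cells, in 3 libraries, the highest scores were removed instead, at 0.8% per 1000 barcodes. Clustering used 2000 variable genes without any peptide gene, z-scaled values clipped at 10, 30 components, 15 neighbours and Leiden resolution 1; scaling was chosen after an unscaled run gave fewer clusters. A cluster was named where at least 3 fixed markers were raised 1.5-fold and no other list led its top 10 genes. UMIs were summed per library and class and tested with edgeR 4.0.16 (TMM, filterByExpr, Benjamini-Hochberg over all genes); DESeq2 1.42.0 was an alternative. The test was checked on simulated counts. Coordinates come from GENCODE vM21.

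The 6 genes, the marker lists and the 5 gene lists (other precursors, receptors, processing, GABA and glycine, glutamate) were chosen with earlier results of these data known. Named beside the 6 were list genes averaging 20 CPM or more in a class, at most 6 per list, those past the threshold, and the 5 genes most like each member. Prph was named after its values were seen, and Pcsk1 and Pcsk2 are given as convertase genes. The libraries totalled 15470932 and 5305154 UMIs (control replicates 1 and 2) and 20724086 and 21021428 UMIs (knockout replicates 1 and 2). Where a class holds few UMIs, 3 counts set its floor, which is 38.5 CPM in the Purkinje-like cells of control replicate 2. Replicates are separate pools by label, so p-values of the genotype tests measure the spread between pools. The test between classes and the test of the difference of genotype effects had the library as a block. Their p-values measure how far the difference between classes varied from library to library, not the spread between pools. Replicates of each genotype differed by more than sampling noise (chi-square per degree of freedom 69.6 and 15.9).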

Additional observations from a re-analysis of the deposited data

Results flagged for a closer look

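The genotype effect on Sst differed between cell classes by a test of the difference itself: the log2 fold change of knockout over control was lower in Purkinje-like than in interneuron-like cells by -1.713 (SE 0.28, adjusted p = 1.66e-06, edgeR). Neither effect passed alone, at -1.26 and 0.42. The Purkinje-like Sst level of control replicate 2 was not above the erythroid-like level of that library. Over 11 alternatives the difference ranged from -1.92 to -1.31, always in the same direction, with adjusted p from 1.37e-06 to 1.00. It kept its call in 6 of them. DESeq2, stricter cell filters (-1.52, adjusted p = 0.480, edgeR) and leaving out control replicate 1 or either knockout library ended it.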

How the results depend on the processing

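Control replicate 2 has 27 Purkinje-like cells, which limits what its levels can show, and 2-fold changes were mostly missed in simulated counts. Counts of genes called for genotype in all kept, Purkinje-like and interneuron-like cells were 0, 2 and 0. Without the low-count filter they were 0, 21 and 13; with DESeq2 52, 2 and 0; with stricter cell filters 0, 11 and 0. Leaving out 1 library at a time gave 10 to 2581, 0 to 260 and 1 to 539 calls, the most without a control, where the lone control is assumed to vary like the knockouts. With the replicate number as a block the counts were 117, 12 and 7; same-numbered libraries did not deviate together (r = -0.11, 0.07 and -0.14), so the numbers were not taken to pair them. With crossed numbers, added after seeing the data, the counts were 0, 2 and 19. The Purkinje-like against interneuron-like test called 2131 genes, 1263 with DESeq2, 817 with stricter filters and 1456 to 2106 without 1 library. The test of the difference between classes called 28, and 0, 11 and 1 to 22 in the same order.

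Of the repeats of single-gene log2 fold changes, 246 kept direction and side of the threshold; 20 reversed, 8 passed newly and 6 lost their call, and the cause was not tested. Reversals of Cartpt were 0.017 (DESeq2) and 0.058 (replicate block) in Purkinje-like cells, -0.21 in interneuron-like cells and 0.10 for the difference (both stricter filters), and of Adcyap1 0.091 in all kept cells (replicate block). Without 1 library, ranges in all kept cells were -0.75 to 0.33 (Sst), -1.08 to 0.86 (Cartpt), -0.97 to 0.77 (Pnoc), -0.66 to 1.20 (Adcyap1) and -2.70 to 0.50 (Cck). In Purkinje-like cells they were -0.61 to 7.17 (Cartpt; the upper value rests on 0 control UMIs and is no bound), -0.0056 to 1.10 (Adcyap1) and -2.36 to 0.091 (Cck). In interneuron-like cells they were -0.081 to 0.76 (Sst) and -0.23 to 3.68 (Cartpt), and for the difference -0.84 to 3.64 (Cartpt) and -0.62 to 4.37 (Cck). Without control replicate 2, Sst (-0.75), Cartpt (-1.08), Pnoc (-0.97) and Npy (-1.60) passed in all kept cells (adjusted p = 0.0434, 0.00544, 0.00737 and 0.0489, edgeR).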

Other observations

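Within Purkinje-like cells, those with an Adcyap1 UMI held most of the Prph, the gene of the neuronal filament peripherin, a pattern noticed after its values were seen. Prph stood at 52.1, 658 and 1598 CPM in the Adcyap1 cells of control replicate 1 and knockout replicates 1 and 2, and at 2.46, 0 and 6.65 CPM in the other Purkinje-like cells of those libraries. Control replicate 2 had 1 Adcyap1 cell and no Prph. Very few cells carry this: 1 of 62, 2 of 57 and 2 of 29 Adcyap1 cells had a Prph UMI. The Purkinje marker sum of the Adcyap1 cells was 3668, 3001 and 3383 CPM against 5177, 4110 and 4164 CPM in the rest.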
